A study of Canis lupus familiaris with 17 samples.

Results

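FCGR1A, FCAR, CARD9 and CYBB are 4 genes of the phagocyte response to antibody-coated and microbial particles. They were found as the endogenous probes that carry these names, 4 of the 780 endogenous probes on the nCounter Canine IO panel. The panel tallies barcoded probes bound to RNA, with no amplification step. RNA was extracted from tissue blocks (formalin-fixed and embedded in paraffin) of spontaneous soft tissue sarcomas from 17 client-owned dogs, 1 tumour per dog. Treated tumours had received collagen-binding forms of IL-2 and IL-12, injected into the tumour. OneDose_2d comprised 3 tumours removed on day 2 after 1 dose: A and C were peripheral nerve sheath tumors and B was a myxosarcoma. OneDose_8d comprised 3 tumours removed on day 8 after 1 dose: A was a perivascular wall tumor, B and C were peripheral nerve sheath tumors. TwoDose_2d comprised 4 tumours given 2 doses and removed on day 8, 2 days after the last dose: A, B and C were peripheral nerve sheath tumors and D was a fibrosarcoma. Untreated comprised 7 archived sarcomas: A, C, D and E were perivascular wall tumors, B, F and G peripheral nerve sheath tumors. All 7 Untreated tumours were archived tissue, so archiving and the absence of treatment cannot be told apart. The letters name different dogs in each group. Sarcoma types were taken from the labels and were not checked against tumour markers. Ages, sexes and strains of the dogs were not used here.

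Phagocytes take up antibody-coated targets through Fc receptors. FCGR1A encodes the high-affinity receptor for IgG, which in humans and mice signals through the ITAM motif of its adaptor, the gamma chain encoded by FCER1G, and is a classic interferon-gamma target in human monocytes. FCAR encodes the IgA receptor, which in humans sits on neutrophils, monocytes and macrophages and pairs with the same gamma chain. CARD9 is an adaptor that carries signals from SYK-coupled receptors such as dectin-1 to BCL10 and MALT1. CYBB encodes the catalytic membrane subunit of the phagocyte NADPH oxidase, the enzyme of the respiratory burst.

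Endogenous probes summed to 126997 counts in OneDose_2d C and 205118 counts in TwoDose_2d D, and to 1016527 to 1752729 counts in the other 15 tumours. The 20 housekeeping probes had a geometric mean of 61.9 counts in OneDose_2d C and 55.1 counts in TwoDose_2d D. It was 280 and 281 counts in OneDose_2d A and B, 297 counts in TwoDose_2d B, and 489 to 709 counts in the remaining 12 tumours. Levels below are raw counts scaled to the average housekeeping level, so a low housekeeping count raises every scaled value of its tumour. TMM scaling (trimmed mean of M-values) is therefore given beside it where a call or a direction differed, and for the main changes of the 4 genes. TMM scaling takes the middle of the endogenous probes as constant. A probe counted as above background in a tumour when its raw count passed the mean plus 2 SD of that tumour's 8 negative control probes, a threshold of 17.9 to 40.6 counts. All 4 genes passed the filter for testing, as did 724 of 780 endogenous probes. Levels of different probes are not ranked against each other, because probes differ in capture efficiency.

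Against Untreated, CYBB and CARD9 rose in OneDose_2d and in TwoDose_2d, with CYBB 5.65-fold and 6.90-fold higher and CARD9 4.66-fold and 3.59-fold higher. Both calls held under TMM scaling in both groups, at 2.91-fold and 3.82-fold for CYBB and 2.42-fold and 2.00-fold for CARD9. All 4 of these calls were lost with sarcoma type in the model (adjusted p of 0.0652 and 0.0824 for CYBB and of 0.0786 and 0.222 for CARD9, edgeR) and among nerve sheath tumors alone. Neither fit draws its group changes from OneDose_2d B or TwoDose_2d D, each the only tumour of its type. The share of all probes called in those fits is not given here. The CARD9 call in TwoDose_2d was also lost without TwoDose_2d B (adjusted p = 0.0774, edgeR). FCGR1A rose 3.51-fold in TwoDose_2d with housekeeping scaling and was not called with TMM scaling (2.19-fold). FCAR had low counts in every group, and its one call, in OneDose_2d, was lost with TMM scaling. In OneDose_8d the edgeR test called 0 of the 4 genes against Untreated, beside 0% of all tested probes. In bulk tissue, a change in the number of cells that express a gene and a change in RNA per cell cannot be told apart.

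**Figure D1:**
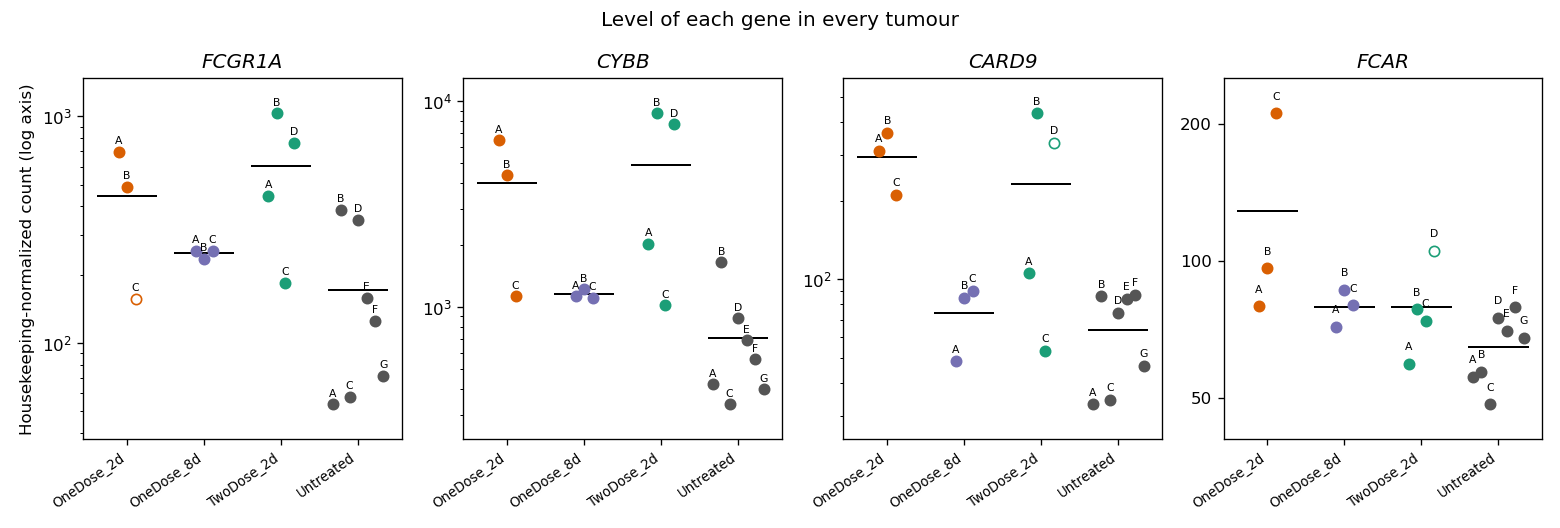
Housekeeping-normalized counts (log axis, a separate scale for each gene) of FCGR1A, CYBB, CARD9 and FCAR in all 17 tumours, by group. Points are tumours, marked with their letter, bars are group means, and open points were not above background. CARD9 in the 3 OneDose_2d tumours lay above all 7 Untreated tumours, with OneDose_2d C resting on 27 raw counts.

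The edgeR quasi-likelihood test over all 724 probes called 3 of the 4 genes higher in OneDose_2d than in Untreated, beside 47.8% of all tested probes called higher. With TMM scaling it called 2 of 4, beside 23.5% of all probes. In TwoDose_2d it called 3 of 4 higher with housekeeping scaling, beside 33.3% of all probes, and 2 of 4 with TMM scaling, beside 21.5%. None of the 4 genes was without overlap between TwoDose_2d and Untreated, beside 11.3% of all probes that were higher without overlap, or 10.4% with TMM scaling. With only 4 genes, this is not read as a difference from that share. The median log2 change over all tested probes was 1.23 in OneDose_2d and 0.63 in TwoDose_2d with housekeeping scaling. With TMM scaling these medians were 0.25 and -0.05. The comparisons with Untreated share the same 7 tumours and are therefore not independent of each other.

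FCGR1A, the high-affinity IgG receptor gene, stood at 695, 487 and 156 normalized counts in OneDose_2d A, B and C, at 255, 235 and 255 in OneDose_8d A, B and C, and at 444, 1031, 184 and 764 in TwoDose_2d A, B, C and D. In Untreated the lowest, median and highest levels were 53.6, 125 and 388 normalized counts. TwoDose_2d A, B and D lay above every Untreated tumour, TwoDose_2d C lay within their range, and so did all 3 OneDose_8d tumours. OneDose_2d A and B were above the Untreated range, whereas OneDose_2d C rested on 20 raw counts, under its threshold of 20.8 counts. With TMM scaling OneDose_2d A and B, at 370 and 292, fell within the Untreated range, which reached 380 in Untreated B. Untreated B and D, at 388 and 349 normalized counts, stood apart from the other 5 Untreated tumours, which reached at most 158.

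Against Untreated, the log2 change of FCGR1A was 1.81 ± 0.58 (SE) in TwoDose_2d (adjusted p = 0.0224, edgeR, n = 4 and 7) and 1.39 ± 0.63 in OneDose_2d (adjusted p = 0.0743, n = 3 and 7). With TMM scaling the changes were 1.13 (adjusted p = 0.0813) and 0.49 (adjusted p = 0.454) by edgeR. In OneDose_8d the change was 0.53 ± 0.64 (adjusted p = 0.984, edgeR). The TwoDose_2d call was lost without TwoDose_2d B (adjusted p = 0.127, edgeR) and without TwoDose_2d D (adjusted p = 0.0702). The OneDose_2d difference was called without Untreated B (adjusted p = 0.0278, edgeR) and without Untreated D (adjusted p = 0.0364).

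FCAR, the IgA receptor gene, had between 12 and 112 raw counts in all 17 tumours. Its normalized counts were 79.5, 96.4 and 211 in OneDose_2d A, B and C, 71.7, 86.4 and 79.9 in OneDose_8d A, B and C, and 59.4, 78.3, 73.9 and 105 in TwoDose_2d A, B, C and D. Untreated tumours ranged over 48.5, 67.8 and 79.1 (lowest, median, highest). All 3 OneDose_2d values lay above the Untreated range, OneDose_2d A only just, as was true of 30.9% of all tested probes, but with TMM scaling the groups overlapped. They also overlapped in the authors' normalized signals, at 105 in OneDose_2d A and 116 in Untreated F. The highest OneDose_2d value, that of C, came from 27 raw counts multiplied by 7.81. The highest TwoDose_2d value came from 12 raw counts, under the threshold of 38.5 counts there.

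The log2 change of FCAR in OneDose_2d was 0.96 ± 0.35 (adjusted p = 0.0294, edgeR) with housekeeping scaling and -0.04 ± 0.37 (adjusted p = 0.938) with TMM scaling. Without OneDose_2d C it was 0.44 (adjusted p = 0.292, edgeR), and after subtraction of background 0.80 (adjusted p = 0.286). It also missed the threshold without Untreated A (adjusted p = 0.0517, edgeR) or Untreated C (adjusted p = 0.0527). In TwoDose_2d the change was 0.27 ± 0.32 (adjusted p = 0.577, edgeR), with the sign turned under TMM scaling at -0.37 ± 0.34 (adjusted p = 0.404). In OneDose_8d it was 0.29 ± 0.34 (adjusted p = 0.984, edgeR). FCAR thus had no direction that held across scalings in the 2 groups removed 2 days after a dose.

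CARD9, the adaptor gene, had 311, 363 and 211 normalized counts in OneDose_2d A, B and C, 48.4, 84.8 and 90.0 in OneDose_8d A, B and C, and 105, 432, 53.3 and 334 in TwoDose_2d A, B, C and D. Its lowest, median and highest Untreated levels were 33.1, 74.2 and 87.0 normalized counts. Every OneDose_2d tumour lay above every Untreated tumour, also with TMM scaling, where 14.2% of all tested probes showed the same separation. The lowest OneDose_2d value, that of C, came from 27 raw counts multiplied by 7.81, near its threshold of 20.8 counts. The TwoDose_2d tumours were split: B and D lay far above the Untreated range, A just above it and C within it. The value of TwoDose_2d D rested on 38 raw counts, just under its threshold of 38.5.

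The log2 change of CARD9 in OneDose_2d was 2.22 ± 0.51 (adjusted p = 0.00272, edgeR), and 1.27 ± 0.39 (adjusted p = 0.0167) with TMM scaling. In TwoDose_2d it was 1.84 ± 0.48 (adjusted p = 0.0073, edgeR), and 1.00 ± 0.36 (adjusted p = 0.0471) with TMM scaling. In OneDose_8d it was 0.23 ± 0.54 (adjusted p = 0.984, edgeR). The OneDose_2d call held whichever of the 17 tumours was left out, with a log2 change of 2.04 to 2.41. The TwoDose_2d call was lost without TwoDose_2d B, at 1.31 (adjusted p = 0.0774, edgeR).

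CYBB, the oxidase subunit gene, reached 6458, 4376 and 1132 normalized counts in OneDose_2d A, B and C, and 1128, 1225 and 1110 in OneDose_8d A, B and C. It reached 2030, 8729, 1020 and 7717 normalized counts in TwoDose_2d A, B, C and D, against 336, 560 and 1654 in Untreated (lowest, median, highest). OneDose_2d A and B and TwoDose_2d A, B and D exceeded every Untreated tumour. OneDose_2d C, TwoDose_2d C and all 3 OneDose_8d tumours were below Untreated B, the highest Untreated tumour, and above the other 6 of them, which reached at most 884. With TMM scaling OneDose_2d C, at 688, fell below Untreated D, at 861. CYBB passed background in all 17 tumours, with 145 raw counts in OneDose_2d C and 879 in TwoDose_2d D.

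The log2 change of CYBB was 2.50 ± 0.62 (adjusted p = 0.00382, edgeR) in OneDose_2d and 2.79 ± 0.59 (adjusted p = 0.00148) in TwoDose_2d. With TMM scaling these were 1.54 ± 0.50 (adjusted p = 0.0221) and 1.93 ± 0.46 (adjusted p = 0.0042) by edgeR. Both calls held whichever single tumour was left out, with log2 changes of 1.97 to 2.94 in OneDose_2d and 2.34 to 3.15 in TwoDose_2d. In OneDose_8d the change was 0.71 ± 0.64 (adjusted p = 0.984, edgeR). For the single genes, a two-sided exact permutation test on log2(normalized count + 1) gave p = 0.0333 for CYBB in OneDose_2d and p = 0.0121 in TwoDose_2d. The same exact test gave p = 0.0167 and p = 0.0667 for CARD9 and p = 0.1 and p = 0.0242 for FCGR1A. These p-values are unadjusted among 24 such tests. For 3 against 7 tumours this exact test cannot go below p = 0.0167, the value of CARD9 in OneDose_2d.

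**Figure D2:**
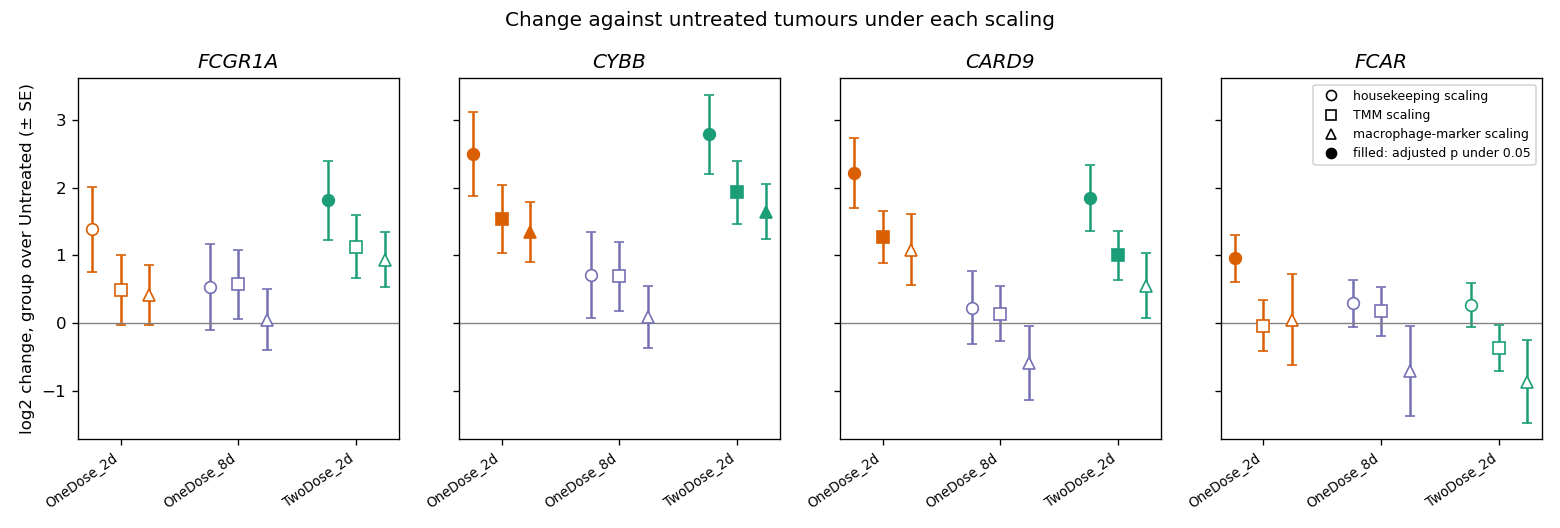
log2 change of each gene against Untreated (± SE) in OneDose_2d, OneDose_8d and TwoDose_2d with housekeeping scaling (circles), TMM scaling (squares) and scaling to macrophage markers (triangles); filled symbols had an adjusted p under 0.05 in edgeR. CYBB was called under all 3 scalings in OneDose_2d and TwoDose_2d, and no gene was called in OneDose_8d.

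The sarcoma types were unevenly spread, with perivascular wall tumors making up 1 of 10 treated tumours and 4 of 7 Untreated ones. The only myxosarcoma was OneDose_2d B and the only fibrosarcoma TwoDose_2d D, so a type term in the model fits each of them exactly. Such a fit compares OneDose_2d A and C and TwoDose_2d A, B and C with Untreated. With sarcoma type in the edgeR model, 0 of the 4 genes were called in OneDose_2d or in TwoDose_2d against Untreated. CYBB then changed by 2.21 in OneDose_2d (adjusted p = 0.0652) and 2.26 in TwoDose_2d (adjusted p = 0.0824), and CARD9 by 1.77 (adjusted p = 0.0786) and 1.35 (adjusted p = 0.222), all log2 values. Among peripheral nerve sheath tumors alone, with 2 OneDose_2d, 3 TwoDose_2d and 3 Untreated, the log2 change of CYBB was 2.13 (adjusted p = 0.167, edgeR) and 2.17 (adjusted p = 0.236), and none of the 4 genes was called. The share of all probes called in these fits is not given here, so the loss of calls is not read as particular to the 4 genes. Within the Untreated group, the types were compared directly. CYBB averaged 583 ± 251 normalized counts in 4 perivascular wall tumors and 871 ± 683 in 3 peripheral nerve sheath tumors (SD). FCGR1A averaged 155 ± 138 normalized counts in perivascular wall tumors and 195 ± 169 in nerve sheath tumors, and CARD9 56.5 ± 26.5 and 73.2 ± 23.1. FCAR ranged from 48.5 to 75.0 in perivascular wall tumors and from 57.0 to 79.1 in nerve sheath tumors. None of the 4 genes was called between the types, with log2 differences of perivascular wall minus nerve sheath from -0.58 to -0.13 (adjusted p = 0.998 for each, edgeR). That model called 0 of 676 probes (0% called), with 27 at an unadjusted p under 0.05, while DESeq2 called 4.

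Between the treated groups, CARD9 was the 1 gene of the 4 called, lower in OneDose_8d than in OneDose_2d. It had 48.4 to 90.0 normalized counts in OneDose_8d and 211 to 363 in OneDose_2d, with no overlap. The lowest OneDose_2d value, that of C, came from 27 raw counts, near its threshold of 20.8 counts. The groups also did not overlap with TMM scaling, and 38% of all tested probes were likewise lower without overlap, or 20.9% with TMM scaling. Its log2 change was -1.99 ± 0.67 (adjusted p = 0.0473, edgeR), beside 19.2% of all probes called lower. With TMM scaling the change was -1.13 ± 0.48 (adjusted p = 0.117), and 0 of the 4 genes were called, beside 7.46% of all probes. That call held in 6 of 17 fits that left out 1 tumour and was lost in the other 11, which left out any single OneDose_2d or OneDose_8d tumour or 1 of Untreated B, D, E, F and G.

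CYBB in OneDose_8d differed from OneDose_2d by -1.79 ± 0.80 on the log2 scale (adjusted p = 0.1001, edgeR), and FCGR1A by -0.86 ± 0.78 (adjusted p = 0.399). FCAR differed by -0.67 ± 0.42 (adjusted p = 0.223, edgeR). With TMM scaling FCGR1A and FCAR had the opposite sign, at 0.08 and 0.21. FCGR1A stood at 248 ± 11.4 and CYBB at 1154 ± 61.7 normalized counts in OneDose_8d (SD, n = 3), against 446 ± 272 and 3989 ± 2684 in OneDose_2d (SD, n = 3). With TMM scaling the SDs in OneDose_8d were 50.6 and 214. CARD9 stood at 74.4 ± 22.7 in OneDose_8d, against 295 ± 77.5 in OneDose_2d. An exact permutation test of 3 against 3 tumours cannot go below p = 0.1.

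TwoDose_2d did not pass the threshold against OneDose_8d or OneDose_2d for any of the 4 genes. Against OneDose_8d, CYBB differed by 2.08 ± 0.78 (adjusted p = 0.0799, edgeR) and CARD9 by 1.62 ± 0.63 (adjusted p = 0.0902) on the log2 scale, beside 9.39% of all probes called higher and 6.63% with TMM scaling. FCGR1A differed by 1.28 ± 0.75 (adjusted p = 0.258, edgeR) and FCAR by -0.03 ± 0.39 (adjusted p = 0.970). Without TwoDose_2d A, CYBB (adjusted p = 0.0451, edgeR) and CARD9 (adjusted p = 0.0462) passed, and likewise without TwoDose_2d C (adjusted p = 0.0289 and 0.0243). Against OneDose_2d, the log2 differences were 0.29 ± 0.73 for CYBB, 0.42 ± 0.73 for FCGR1A, -0.38 ± 0.60 for CARD9 and -0.69 ± 0.40 for FCAR (adjusted p of 0.538 to 0.942, edgeR). In that comparison 0% of the 724 probes were called by edgeR, with 88 at an unadjusted p under 0.05, while DESeq2 called 28 with housekeeping size factors and 6 with its own, and limma called 1. OneDose_8d against Untreated likewise had 0% of probes called by edgeR, with 33 at an unadjusted p under 0.05, while DESeq2 called 1 with housekeeping size factors and 0 with its own, and limma called 0.

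With housekeeping scaling, TwoDose_2d B and D stood apart from A and C in 3 of the 4 genes. B and D had 8729 and 7717 CYBB counts, 1031 and 764 FCGR1A counts and 432 and 334 CARD9 counts, all normalized to housekeeping probes. A and C had 2030 and 1020 CYBB counts, 444 and 184 FCGR1A counts and 105 and 53.3 CARD9 counts. B and D were also the 2 TwoDose_2d libraries with the lowest housekeeping level, and with TMM scaling CYBB was 4860 and 3930 in B and D against 1984 and 1071 in A and C. CARD9 kept that order with TMM scaling, at 241 and 170 in B and D against 103 and 55.9 in A and C. FCGR1A did not, at 574 and 389 in B and D against 434 and 193 in A and C, so that A lay above D. In the same tumours IFNG, the gene of interferon-gamma, had 1756 and 1686 normalized counts in B and D and 36.8 and 23.9 in A and C. S100A8, a calprotectin subunit gene abundant in neutrophils, had 17530 and 17858 in B and D and 375 and 356 in A and C. The summed macrophage markers were 33217 and 33328 in B and D against 9688 and 6809 in A and C, and with TMM scaling 18493 and 16970 against 9468 and 7150. The summed T cell markers were 4401 and 5637 normalized counts in B and D against 1288 and 1668 in A and C. The part of depth, of interferon-gamma and of neutrophil, macrophage or T cell content in these levels was not tested.

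The 4 genes are known from macrophages and neutrophils, so markers of both were set beside them. Summed over 13 macrophage and monocyte markers, normalized counts were 10637 to 34719 in OneDose_2d, 9940 to 15062 in OneDose_8d, 6809 to 33328 in TwoDose_2d and 2426 to 17386 in Untreated. Of these 13 markers, 4 were called higher by edgeR in OneDose_2d and 4 in TwoDose_2d against Untreated, and 0 in OneDose_8d, beside the 47.8%, 33.3% and 0% of all probes. With TMM scaling the counts were 0 in OneDose_2d, and 2 higher (CD4 and TYROBP) and 1 lower (the mannose receptor gene MRC1) in TwoDose_2d, where 4.97% of all probes were called lower. CD68, a lysosomal glycoprotein gene of macrophages, rose in TwoDose_2d by 1.62 ± 0.46 (adjusted p = 0.0114, edgeR), a call lost with TMM scaling (0.89, adjusted p = 0.0842). The scavenger receptor gene CD163 did not pass the test, at -0.33 ± 0.66 (adjusted p = 0.754). CSF1R, the receptor gene for macrophage colony-stimulating factor, rose in OneDose_2d by 1.37 ± 0.45 (adjusted p = 0.0193, edgeR), which was lost with TMM scaling (0.40, adjusted p = 0.386). CD14 and ITGAM did not pass in either group. With housekeeping scaling the highest change of the list was that of TYROBP in OneDose_2d (2.14 ± 0.65) and of CD4, also a T cell gene, in TwoDose_2d (3.12). The lowest was that of the scavenger receptor gene MARCO in OneDose_2d, at -0.77 ± 1.34 (adjusted p = 0.652, edgeR), and of MRC1 in TwoDose_2d, at -1.13 ± 0.49 (adjusted p = 0.0885).

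Summed over 13 neutrophil markers, normalized counts were 3019 to 7191 in OneDose_2d, 1046 to 1889 in OneDose_8d, 1847 to 49087 in TwoDose_2d and 1238 to 16050 in Untreated. CXCR2, a chemokine receptor gene of neutrophils, was not above background in any OneDose_8d tumour. edgeR called 4 of 13 higher in OneDose_2d and 8 of 13 in TwoDose_2d, beside the same shares of all probes. With TMM scaling it called 0 in OneDose_2d and 1 in TwoDose_2d, CSF3R, the receptor gene for granulocyte colony-stimulating factor (2.68 ± 0.83, adjusted p = 0.0230). LTF, the lactoferrin gene, was the highest in OneDose_2d (2.46 ± 0.90, adjusted p = 0.0319, edgeR) and S100A9 in TwoDose_2d (3.91 ± 1.37, adjusted p = 0.0352), and both calls were lost with TMM scaling (adjusted p = 0.118 and 0.0815). MMP9 had the lowest change in TwoDose_2d and CXCL8 in OneDose_2d, and neither passed the test. Of 8 dendritic cell markers, 5 rose in OneDose_2d and 4 in TwoDose_2d (3 and 2 with TMM scaling), and of 7 B cell markers 6 and 3 (5 and 0). Of 14 T cell markers 12 rose in each group (10 and 11 with TMM scaling), and of 10 NK cell markers 9 in OneDose_2d and 8 in TwoDose_2d (7 and 7). These counts stand beside 47.8% and 33.3% of all probes called higher, and 23.5% and 21.5% with TMM scaling. The B cell markers summed to 973 to 1391 normalized counts in OneDose_2d, 336 to 538 in OneDose_8d, 319 to 1168 in TwoDose_2d and 205 to 539 in Untreated. The part of any of these cell types in the levels of the 4 genes was not tested with these sums.

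To set the 4 genes against macrophage content directly, the edgeR model was refitted with the geometric mean of 8 macrophage markers as library size. CYBB remained higher, by 1.34 ± 0.44 on the log2 scale in OneDose_2d (adjusted p = 0.0334, edgeR) and by 1.65 ± 0.41 in TwoDose_2d (adjusted p = 0.00711). In these fits 15.2% and 13.8% of all probes were called higher. On this scale CYBB stood at 3792, 1883 and 1535 in OneDose_2d A, B and C and at 1975, 4587, 1277 and 4036 in TwoDose_2d A, B, C and D, against 745, 894 and 1423 in Untreated (lowest, median, highest). All OneDose_2d tumours and TwoDose_2d A, B and D exceeded every Untreated tumour. The share of all probes with such a separation was not worked out on this scale, so it is not read as particular to CYBB. The OneDose_2d call was lost without OneDose_2d A (0.85, adjusted p = 0.214, edgeR) and without Untreated A, C or E (adjusted p of 0.0532 to 0.0599). The TwoDose_2d call was lost without TwoDose_2d B (1.36, adjusted p = 0.0528, edgeR).

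FCGR1A, CARD9 and FCAR were not called relative to macrophage markers. FCGR1A changed by 0.41 ± 0.44 in OneDose_2d (adjusted p = 0.472, edgeR) and 0.94 ± 0.40 in TwoDose_2d (adjusted p = 0.0865). CARD9 changed by 1.08 ± 0.52 (adjusted p = 0.117, edgeR) and 0.55 ± 0.48 (adjusted p = 0.383), and FCAR by 0.05 ± 0.67 and -0.86 ± 0.61 (adjusted p = 0.963 and 0.268). OneDose_8d had 0 of 4 called against Untreated on this scale, with CYBB at 0.09 ± 0.46 (adjusted p = 0.908, edgeR), and so had each comparison between treated groups. On this scale edgeR called 0% of all probes in OneDose_8d against Untreated (89 at an unadjusted p under 0.05) and 0% in TwoDose_2d against OneDose_2d (82 at an unadjusted p under 0.05). It called 10.6% lower in OneDose_8d against OneDose_2d and 7.87% higher in TwoDose_2d against OneDose_8d. CYBB was called in TwoDose_2d against OneDose_8d without TwoDose_2d C (adjusted p = 0.0349, edgeR). The marker set includes TYROBP, which itself rose against Untreated in both groups with housekeeping scaling. It also includes CD163, at -0.65 in OneDose_2d and -0.33 in TwoDose_2d, and MRC1, which rose by 1.39 in OneDose_2d and stood at -1.13 in TwoDose_2d (-1.63 and called lower with TMM scaling).

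A ratio of 2 probes within a tumour needs no scaling, but background was not subtracted here. The raw count of CYBB over that of FCGR1A was 9.30, 8.98 and 7.25 in OneDose_2d A, B and C and 4.57, 8.47, 5.55 and 10.1 in TwoDose_2d A, B, C and D. It was 4.43, 5.21 and 4.35 in OneDose_8d A, B and C, against 2.53, 4.49 and 7.88 in Untreated (lowest, median, highest). OneDose_2d A and B and TwoDose_2d B and D exceeded every Untreated tumour. OneDose_2d C, whose FCGR1A count of 20 was not above background, fell within the Untreated range. The ratio of CYBB to CARD9 was 5.37 to 20.8 in OneDose_2d, 12.3 to 23.3 in OneDose_8d and 19.1 to 23.1 in TwoDose_2d, against 6.43 to 19.2 in Untreated. The lowest OneDose_2d value, that of C, divides by a CARD9 count of 27, near its threshold of 20.8. The highest TwoDose_2d value, that of D, divides by a CARD9 count of 38 that was not above background, and the others there were 19.1 to 20.2. These ratios are descriptions and were not tested.

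**Figure D3:**
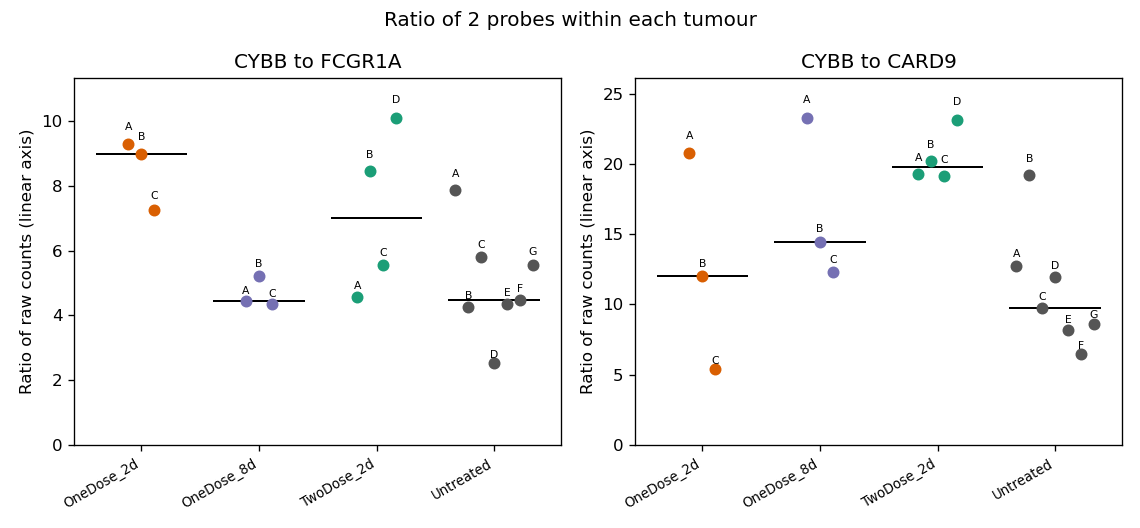
Ratio of raw counts of CYBB to FCGR1A and of CYBB to CARD9 in each tumour (linear axis from 0), by group, with letters for tumours and bars for group medians. The median ratio of CYBB to FCGR1A was 8.98 in OneDose_2d, 4.43 in OneDose_8d, 7.01 in TwoDose_2d and 4.49 in Untreated.

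Across the 17 tumours, FCGR1A and CYBB varied together, with Pearson r = 0.865 on log2(TMM count + 1) and 0.853 after removal of group means. CYBB and CARD9 had r = 0.792 and 0.716, and FCGR1A and CARD9 0.580 and 0.594. FCAR ran the other way, with r = -0.755 against CYBB, but with housekeeping scaling that value was 0.331. These are descriptions over 17 tumours that share the group means, the depth of each library and the scaling. The 3 probes most like CYBB were FCER1G (r = 0.971), TLR8 (r = 0.957) and CTSS (r = 0.952), which stayed at 0.940, 0.917 and 0.927 without group means. The most like FCGR1A were CD53 (0.912), IL18 (0.884) and CTSS (0.882). Those most like CARD9 were CD22 (0.938), NCF4 (0.927) and CIITA (0.916). Those most like FCAR were HRAS (0.905), CXCR5 (0.896) and IL29L (0.896), where HRAS fell to 0.450 with housekeeping scaling. The median r with all tested probes lay between -0.06 and 0.03 for the 4 genes.

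The other genes of the same pathways on the panel were examined as lists. All 4 other tested Fc receptor and adaptor genes rose in OneDose_2d and in TwoDose_2d against Untreated, with a median log2 change of 2.39 in each. With TMM scaling 3 of 4 rose in each group, beside the background shares given above. FCER1G, the shared gamma chain of FCGR1A and FCAR, rose by 2.46 ± 0.61 in OneDose_2d (adjusted p = 0.00382, edgeR) and by 2.57 ± 0.58 in TwoDose_2d (adjusted p = 0.00231). Its normalized counts were 1148 to 5812 in OneDose_2d, 876 to 1479 in OneDose_8d, 1133 to 8374 in TwoDose_2d and 345 to 1470 in Untreated. TYROBP, another ITAM adaptor, rose by 2.14 and 2.22, and lost its OneDose_2d call with TMM scaling (1.22, adjusted p = 0.0809, edgeR). FCER2, the low-affinity IgE receptor known from B cells, had the largest change of the list, 4.45 ± 0.77 in OneDose_2d and 4.09 ± 0.74 in TwoDose_2d (adjusted p = 0.000407 and 0.000472, edgeR). FCER1A, the IgE-binding chain of the mast cell receptor, rose by 2.32 ± 0.58 in OneDose_2d (adjusted p = 0.0041, edgeR) and by 1.75 ± 0.56 in TwoDose_2d (adjusted p = 0.0216), the second not with TMM scaling.

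All 4 other tested genes of the oxidase and phagocyte killing list rose in both groups, with median log2 changes of 3.60 in OneDose_2d and 2.87 in TwoDose_2d. With TMM scaling 4 of 4 and 3 of 4 rose. Over all probes, 47.8% and 33.3% were called higher in these groups, and 23.5% and 21.5% with TMM scaling. NCF4, a cytosolic subunit of the same oxidase as CYBB, had 484, 565 and 203 normalized counts in OneDose_2d A, B and C and 147, 540, 64.4 and 378 in TwoDose_2d A, B, C and D, against 26.4, 81.7 and 111 in Untreated (lowest, median, highest). Its log2 change was 2.64 ± 0.57 in OneDose_2d (adjusted p = 0.00164, edgeR) and 2.05 ± 0.53 in TwoDose_2d (adjusted p = 0.00681). ACOD1, which makes itaconate in activated macrophages, rose by 6.49 ± 0.83 in OneDose_2d (adjusted p = 4.35e-05, edgeR) and by 5.85 ± 0.79 in TwoDose_2d (adjusted p = 8.62e-05). ACOD1 averaged 1976 ± 1178 normalized counts in OneDose_2d (SD, n = 3) and 1282 ± 1391 in TwoDose_2d (SD, n = 4), against 18.4 ± 2.78 in OneDose_8d and 22.0 ± 8.40 in Untreated. SLC11A1, a phagosomal metal transporter, rose by 3.78 ± 0.80 and 3.55 ± 0.77, and NOS2, inducible nitric oxide synthase, by 3.42 ± 0.65 and 2.19 ± 0.61. NOS2 lost its TwoDose_2d call with TMM scaling (1.22, adjusted p = 0.0889, edgeR).

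Of 13 other tested genes of the CARD9 pathway, 7 rose in OneDose_2d and 7 in TwoDose_2d against Untreated, beside 47.8% and 33.3% of all probes. With TMM scaling 4 rose in OneDose_2d and 3 in TwoDose_2d, beside 23.5% and 21.5% of all probes, and the ubiquitin ligase gene TRAF6 fell in OneDose_2d (-0.99, adjusted p = 0.0275, edgeR), where 15.7% of all probes were called lower. With housekeeping scaling TRAF6 stood at 0.03. SYK, the kinase upstream of CARD9, rose by 2.47 ± 0.65 in OneDose_2d (adjusted p = 0.0055, edgeR) and by 2.74 ± 0.62 in TwoDose_2d (adjusted p = 0.00238). CLEC7A, the gene of dectin-1, rose by 2.04 ± 0.57 and 1.61 ± 0.53, in both groups only with housekeeping scaling. BCL10, the direct partner of CARD9, rose by 0.80 ± 0.29 in OneDose_2d (adjusted p = 0.0305, edgeR) and stood at -0.20 (adjusted p = 0.640) with TMM scaling. TNF rose by 2.59 ± 0.57 and 2.64 ± 0.54, and the inflammasome adaptor gene PYCARD by 3.51 ± 0.64 and 2.99 ± 0.61. NLRP3, an inflammasome sensor gene, rose by 2.75 ± 0.55 and 1.83 ± 0.52, and the kinase gene RIPK2 by 1.71 ± 0.44 and 1.54 ± 0.41. With TMM scaling NLRP3 lost its TwoDose_2d call and RIPK2 both calls. IL6 was called in TwoDose_2d alone (3.67 ± 1.26, adjusted p = 0.0313, edgeR), only with housekeeping scaling, and its difference between TwoDose_2d and OneDose_2d was not called (1.75, adjusted p = 0.767).

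Of the 8 tested genes of ITAM and Src-family signalling, 6 rose in each group, beside 47.8% and 33.3% of all probes. Under TMM scaling 5 rose in OneDose_2d and 3 in TwoDose_2d, beside 23.5% and 21.5% of all probes. LYN, a Src-family kinase that phosphorylates ITAMs, rose by 3.01 ± 0.68 in OneDose_2d (adjusted p = 0.00242, edgeR) and by 2.80 ± 0.65 in TwoDose_2d (adjusted p = 0.00295). PIK3CG, a phosphoinositide 3-kinase subunit gene of leukocytes, rose by 2.72 ± 0.48 and 2.20 ± 0.46, and the adaptor gene BLNK by 2.68 ± 0.48 and 1.83 ± 0.45. BLNK lost its TwoDose_2d call with TMM scaling (0.94, adjusted p = 0.0581, edgeR). In OneDose_8d 0 genes of these 4 lists were called against Untreated, by edgeR with either scaling, beside 0% of all probes.

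**Figure D4:**
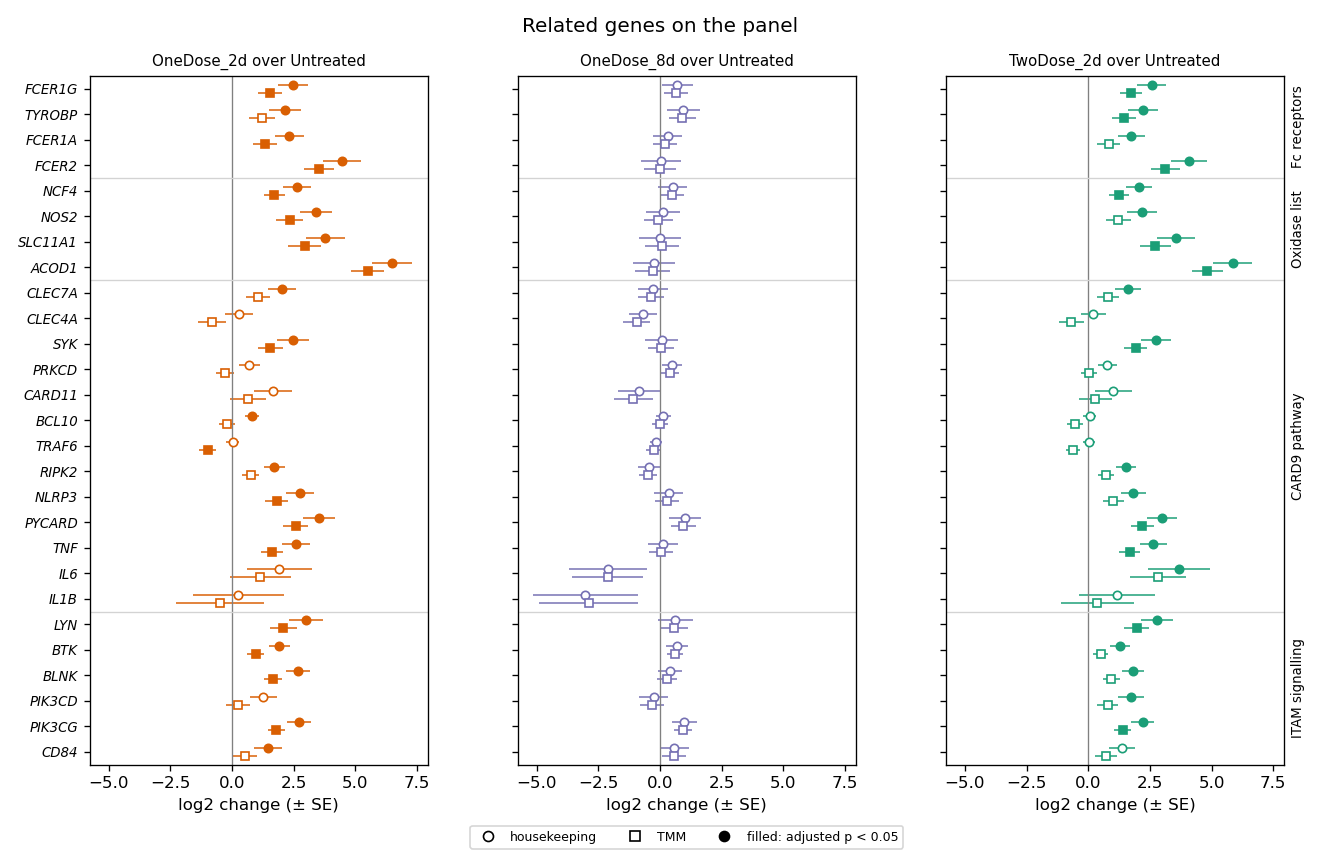
log2 change (± SE) against Untreated of other tested genes of the Fc receptor, oxidase, CARD9 and ITAM lists in OneDose_2d, OneDose_8d and TwoDose_2d, with housekeeping scaling (circles) and TMM scaling (squares); filled symbols had an adjusted p under 0.05 in edgeR, and SYK, which is in both the CARD9 and ITAM lists, is drawn once. The OneDose_8d panel has no filled symbol, and ACOD1 had the highest change in both other panels.

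Because FCGR1A is an interferon-gamma target, the interferon-gamma response list was set beside it. All 18 tested genes of that list rose in OneDose_2d and 17 of 18 in TwoDose_2d against Untreated, and 17 in each with TMM scaling, with 0 of 18 in OneDose_8d. Over all probes, 47.8% and 33.3% were called higher in the first 2 groups, 23.5% and 21.5% with TMM scaling, and 0% in OneDose_8d. IRF1, a transcription factor gene induced by interferon-gamma, changed by 5.43 ± 0.68 in OneDose_2d (adjusted p = 4.35e-05, edgeR) and by 3.49 ± 0.62 in TwoDose_2d (adjusted p = 0.000445). IFNG changed by 5.58 ± 0.91 in OneDose_2d and 6.64 ± 0.92 in TwoDose_2d. IDO1, a tryptophan-degrading enzyme, had the largest change of the list (9.46 in OneDose_2d and 8.26 in TwoDose_2d), and the kinase gene JAK2 the smallest (1.02 and 0.72, or -0.02 and 0.01 with TMM scaling). FCGR1A changed by 1.39 and 1.81, the first not called, and the difference in change between genes was not tested.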

How the data were processed

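The 17 samples, each from a different dog, were grouped by their labels. Raw probe counts were deposited without normalization, per the file headers. The authors also deposited a normalized signal for each probe. For that signal, the nSolver version is not given in the sources used here, nor are its normalization steps. Each signal was close to the raw count times 1 factor per sample that tracked the housekeeping probes. In TwoDose_2d and Untreated the signals also carried a factor per probe (1.11 for FCAR, 1.02 to 1.03 for FCGR1A, 1.01 to 1.02 for CARD9, 0.99 for CYBB), absent in both single-dose groups. Its reason is not given in the sources used here. A difference in reagents or handling between those 2 sets of samples cannot be told apart from treatment in comparisons of single-dose tumours with Untreated. The same holds for comparisons of single-dose tumours with TwoDose_2d. Further, 1 FCAR value lay at the table's floor. These signals served as an alternative only. A further table of 17 columns that match no label was not used.

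edgeR 4.0.16 (R 4.3.3, quasi-likelihood F-test, robust) was fitted to raw counts of 724 probes above background in at least 3 samples, with all 4 groups in 1 model and the geometric mean of 20 housekeeping probes as library size. Calls are Benjamini-Hochberg adjusted p under 0.05 over all probes; each SE was worked back as the size of the log2 change divided by the root of F. Alternatives were TMM and median-of-ratios scaling, DESeq2 1.42.0, limma 3.58.1 on the deposited signals, background subtraction, no filter, sarcoma type as covariate, nerve sheath tumors only, a replicate-letter block, and leaving out each tumour or both low-count libraries. The fit was also run on simulated counts, with the same spread for all probes and housekeeping scaling correct by design. That run does not bear on how stable the calls are. Total counts per sample limit precision most in OneDose_2d C and TwoDose_2d D.

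Named genes were the 4 genes, tested genes of the 4 pathway lists, the highest and lowest gene of each marker list, the reference genes CD68, CD14, CD163, CSF1R, ITGAM, IFNG and IRF1, and the 3 probes most like each gene. S100A8, CXCR2, CSF3R and MRC1 beside other results, and TYROBP as a scaling gene were named after their values were seen. The 4 genes and all lists were chosen with earlier results of these data known. All 4 symbols matched the RefSeq gene table of UU_Cfam_GSD_1.0; the probe's transcript accession matched for CYBB. No sequence or coordinate was used. Some genes of these lists are not reported here by name.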

Additional observations from a re-analysis of the deposited data

How the results depend on the processing

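Of 3 genes called in OneDose_2d against Untreated, 0 stayed called with sarcoma type as covariate, among nerve sheath tumors only, or with TMM scaling and sarcoma type. Of 3 called in TwoDose_2d against Untreated, 0 stayed called in those 3 fits, 1 with median-of-ratios scaling, 1 with TMM scaling without both low-count libraries, and 1 to 3 with single tumours left out. In OneDose_8d against OneDose_2d, the 1 call became 2 with DESeq2 and housekeeping size factors and 0 to 1 with single tumours left out. It became 0 with TMM or median-of-ratios scaling, background subtraction, sarcoma type, nerve sheath tumors only, both low-count libraries left out (also with TMM), TMM with sarcoma type, DESeq2's own size factors, or limma on the deposited signals. In TwoDose_2d against OneDose_8d, DESeq2 with housekeeping size factors called 2 and leave-one-out fits 0 to 2. Relative to macrophage markers, leave-one-out fits called 0 to 1 in OneDose_2d and in TwoDose_2d against Untreated, and 0 to 1 in TwoDose_2d against OneDose_8d. The low-count libraries are OneDose_2d C and TwoDose_2d D. The fits that combine TMM with another choice, and the ratios of raw counts, were chosen after seeing the data.

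Direction turned mainly for FCAR. In OneDose_2d against Untreated its log2 change was -0.039 with TMM, -0.16 with median-of-ratios, -0.22 with DESeq2's own size factors and -0.63 with TMM without both low-count libraries. In TwoDose_2d against Untreated it was -0.37, -0.46, -0.46 and -0.38 in those 4 fits, -0.24 with background subtracted, -0.35 with TMM and sarcoma type, and -0.62 with limma. In OneDose_8d against OneDose_2d it was 0.21, 0.27, 0.33 and 0.85 in those 4 fits and 0.055 with TMM and sarcoma type. FCGR1A in OneDose_8d against OneDose_2d was 0.082 with TMM, 0.053 with median-of-ratios, 0.052 with DESeq2's own size factors and 0.23 with TMM and sarcoma type. In TwoDose_2d against OneDose_2d, TMM without both low-count libraries gave 0.26 for FCAR and -0.25 for CYBB, and leaving both out with housekeeping scaling gave -0.46 for CYBB and -0.10 for FCGR1A. Mean log2 levels with TMM differed by -0.13 for FCAR in OneDose_2d and -0.39 in TwoDose_2d against Untreated, and by 0.32 for FCAR and 0.29 for FCGR1A in OneDose_8d against OneDose_2d. Relative to macrophage markers and without both low-count libraries, FCAR stood at -1.35 in OneDose_2d against Untreated (-0.30 with background subtracted), 0.65 in OneDose_8d and 0.53 in TwoDose_2d against OneDose_2d, and CYBB at -0.12 in TwoDose_2d against OneDose_2d.

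With single tumours left out, CYBB ranged from -0.16 to 0.82 in TwoDose_2d against OneDose_2d, and FCAR from -0.17 to 0.092 in TwoDose_2d against OneDose_8d. Between untreated types, CYBB ranged from -0.93 to 0.28 and FCGR1A from -1.12 to 0.66, both positive only without Untreated B. Relative to macrophage markers, FCAR ranged from -1.35 to 0.50 in OneDose_2d against Untreated, from -1.20 to 0.65 in OneDose_8d and from -1.36 to 0.49 in TwoDose_2d against OneDose_2d. On that scale FCGR1A ranged from -0.53 to 0.040 in OneDose_8d against OneDose_2d and from -0.053 to 0.23 against Untreated. The cause of these shifts was not tested.

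The letters shared between groups name different dogs, so they do not pair tumours. Deviations from group means had r of -0.21 to 0.38 (median 0.03) in 19 same-letter pairs. In 84 different-letter pairs r was -0.46 to 0.47 (median -0.02). With the letter as a replicate block, 2 genes were called in OneDose_2d and 3 in TwoDose_2d against Untreated, CARD9 at 2.74 and CYBB at 2.62 in OneDose_2d, and CYBB stood at -0.23 in TwoDose_2d against OneDose_2d. Depth limits FCAR in all tumours and CARD9 and FCGR1A in the 2 low-count libraries.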
